A study of Mus musculus with 24 samples.

Results

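The GABA system and interneuron genes are 30 mouse genes chosen by name for their function: 10 subunits of the GABA-A receptor, 2 of the GABA-B receptor, 5 genes of GABA synthesis, transport and breakdown, 2 scaffold genes of inhibitory synapses and 11 markers of inhibitory interneurons. Every probe set whose single gene symbol was a member was taken, and the brightest probe set stood for the gene in counts over genes. A named probe set existed for 29 members, 66 in all, and Gabbr2 was not analysed here. After the 40% dimmest probe sets of the array were left out, 51 probe sets of 28 members remained, out of 27022 probe sets of 12929 genes tested. Gabra6 was the only named member with no probe set left.

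RNA of whole brains from 4-month-old mice had been hybridised to 24 Affymetrix arrays, 1 per sample, in 4 groups of 6. The labels call the groups aSYN/Hsp70 (written aSYN/70 in the titles), aSYN, Hsp70 and wt. The name aSYN is read here as alpha-synuclein, the protein of Lewy bodies in Parkinson's disease, Hsp70 as the heat shock chaperone of that name, and wt as wild type. The labels give neither how the mice were made, nor the promoter, strain or number of lines, nor whether the samples of a group came from separate animals, so p-values here cover only the spread between the samples, which may be technical.

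GABA is the main inhibitory transmitter of the brain. Glutamate decarboxylases make it from glutamate in inhibitory neurons, a vesicular transporter loads it for release, and it opens GABA-A receptors, chloride channels built from alpha, beta and gamma or delta subunits, or acts more slowly through GABA-B receptors. Inhibitory interneurons fall into classes that are told apart by the calcium-binding protein or neuropeptide they make, such as parvalbumin, somatostatin or VIP.

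Values are log2 units, log2(intensity + 16) after quantile normalisation, and a difference is the first-named group minus the second. Array medians before normalisation ran from 458 to 893 intensity units, and no 2 arrays correlated above 0.95 (Spearman). A group of 4 arrays stood apart from the rest by the weight that limma gave them: aSYN/Hsp70 replicates 3 and 4 (0.394 and 0.124), and replicates 3 and 6 of Hsp70 (0.251 and 0.332). A score of Y-linked minus Xist signal was positive in 4 of 6 aSYN/Hsp70, 2 of 6 aSYN, 3 of 6 Hsp70 and 2 of 6 wt arrays. The mouse probe set of Hspa1a, which encodes an inducible HSP70, differed by -0.49 ± 0.42 between aSYN/Hsp70 and aSYN and by -0.08 ± 0.42 between Hsp70 and wt (SE), so it did not check the Hsp70 label.

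Of the 51 member probe sets, 1 was called in aSYN/Hsp70 versus aSYN, a probe set of Gabrb2 that was higher in aSYN/Hsp70. Over all probe sets, 194 of 27022 (0.718%) were called in that comparison at a limma adjusted p (Benjamini-Hochberg) under 0.05. In aSYN versus wt 0 of 51 member probe sets were called, against 1 of 27022 (0.0037%) over all. The share called was 0% of all probe sets, and 0 of 51 member probe sets, in each of aSYN/Hsp70 versus Hsp70, aSYN/Hsp70 versus wt, Hsp70 versus wt, the average Hsp70 difference, the average aSYN difference and the interaction. The interaction takes (aSYN/Hsp70 minus Hsp70) and subtracts (aSYN minus wt).

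At an unadjusted limma p under 0.05, 11.8% of member probe sets passed in aSYN/Hsp70 versus aSYN, against 19.6% of all probe sets. The shares were 11.8% and 9.62% in aSYN/Hsp70 versus Hsp70, 9.8% and 14.5% in aSYN/Hsp70 versus wt, 5.88% and 5.17% in aSYN versus wt, and 7.84% and 4.83% in Hsp70 versus wt. For the average Hsp70 difference they were 11.8% and 17.7%, for the average aSYN difference 9.8% and 6.39%, and for the interaction 9.8% and 8.13%. The member share was below that of all probe sets in 3 of the 8 comparisons and above it in 5, and the shares were not tested against each other. Comparisons that share a group share its arrays and are not independent of each other.

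Taken by the brightest probe set, the 28 members had small median differences. The share of members that was higher was above that of all genes in the average aSYN difference (53.6% against 49.4%) and the interaction (53.6% against 46.1%). In the other comparisons it was below that of all genes. These shares were not tested. Their median difference was -0.06 in aSYN/Hsp70 versus aSYN, where 8 were higher and 20 lower, against -0.01 over 12929 genes, of which 47.8% were higher. The median was -0.03 with 13 of 28 (46.4%) higher in aSYN/Hsp70 versus wt, -0.02 with 13 higher in aSYN versus wt and -0.05 with 12 (42.9%) higher in Hsp70 versus wt. Over all genes these medians were -0.007, 0.008 and 0.006, with 48.7%, 52.2% and 51.2% higher. The plot of differences by member shows that most lay within 0.4 log2 units of 0 in every comparison, and that Cort had the widest errors. In whole-brain RNA, fewer cells of a type and less RNA per cell cannot be told apart.

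Marker lists of brain regions and other cells were set beside the members, and their part in the members' differences was not tested. In aSYN/Hsp70 versus aSYN, 7 of 7 tested thalamus genes (median -0.311) and 10 of 10 tested oligodendrocyte genes (median -0.148) had negative differences, while 6 of 7 olfactory bulb genes had positive ones (median 0.831). Of all genes, 47.8% were higher. Relative to the wt mean, aSYN/Hsp70 replicate 4 had a mean of -0.995 over thalamus genes and -0.680 over oligodendrocyte genes. The other aSYN/Hsp70 arrays lay between -0.432 and -0.137 for thalamus and between -0.259 and 0.030 for oligodendrocytes. The medians of the other lists were 0.028 for 8 granule cell genes, -0.115 for 6 Purkinje genes, -0.134 for 11 striatal, -0.189 for 11 cortical and hippocampal and -0.010 for 6 hypothalamus genes, and 0.038, -0.028 and 0.104 for 12 astrocyte, 10 microglia and 10 endothelium genes. Called higher were 1 of 18 striatal probe sets (Pde10a) and 1 of 17 endothelium probe sets (Cldn5). Of 24 cortical and hippocampal probe sets, 1 was called lower (Rorb), and the remaining lists held no call. Over all probe sets the share was 0.718% in either direction. The brightest Pde10a probe set was not the one called (0.332, limma adjusted p = 0.0818).

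**Figure D1:**
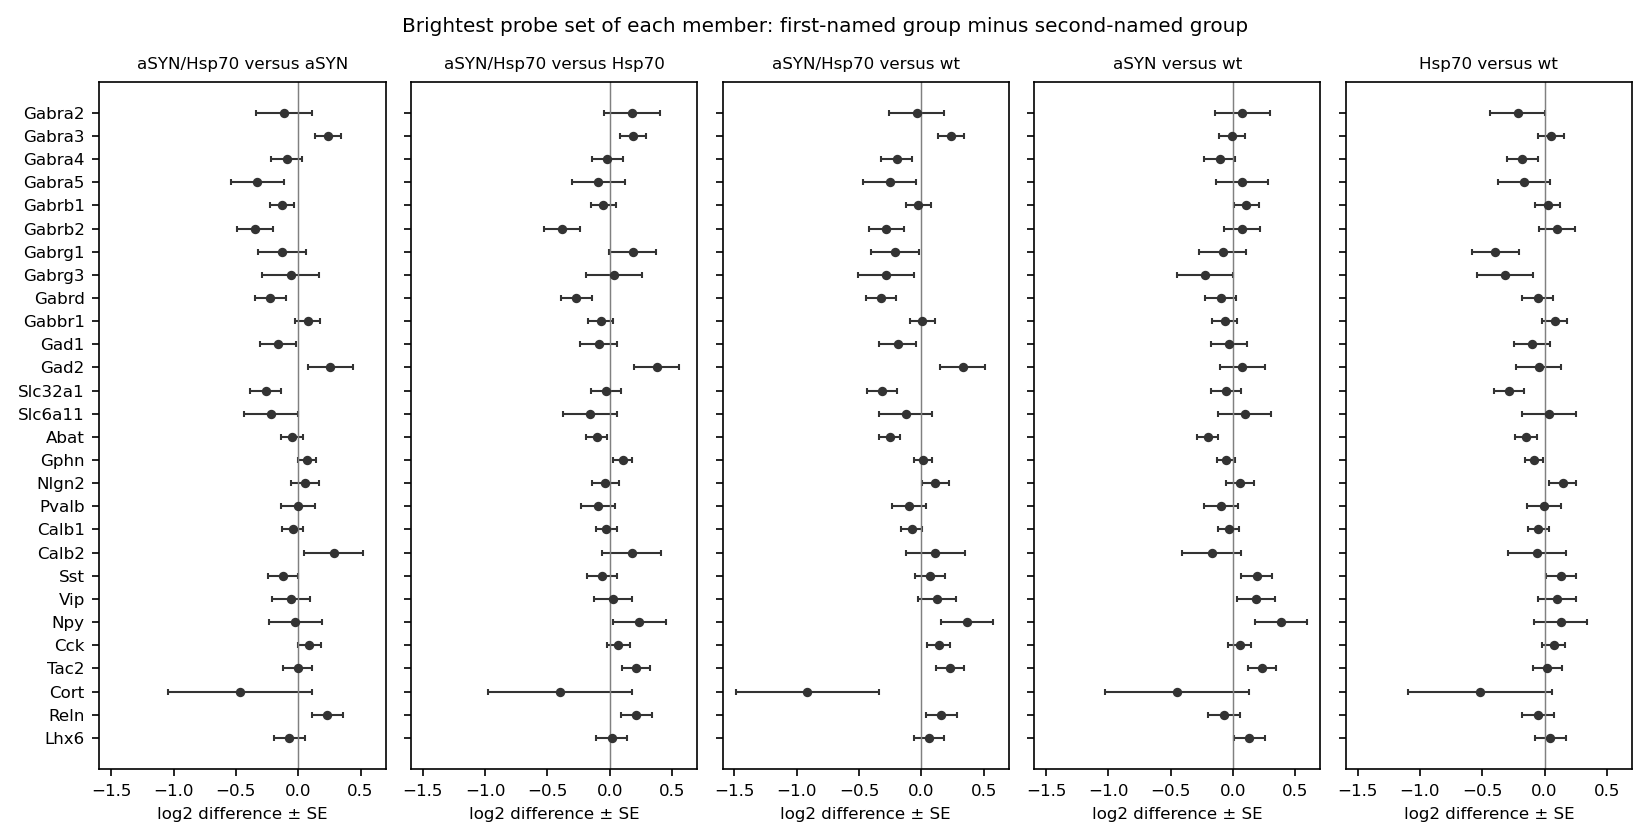
Log2 difference of the brightest probe set of each of 28 members (first-named group minus second-named group, points) with its limma SE (bars), in 5 comparisons of 6 against 6 arrays. Most points lie near 0; Cort, whose difference was -0.92 in aSYN/Hsp70 versus wt, has the widest bars.

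Among receptor subunits, Gabrb2 encodes the beta2 subunit, a partner in the commonest GABA-A receptors of the adult brain. Its probe set 1450319_at ranged from 12.27 to 13.09 in aSYN/Hsp70 (median 12.83), from 11.74 to 12.34 in aSYN (median 12.003), from 12.17 to 12.76 in Hsp70 (median 12.43) and from 12.45 to 12.68 in wt (median 12.58). It was highest in aSYN/Hsp70 and lowest in aSYN. All 6 aSYN arrays lay below all 6 wt arrays, though the probe set was not called in that comparison. In aSYN/Hsp70, 1 array, at 12.27, reached into the aSYN range.

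The mean of this probe set was 12.79 ± 0.28 in aSYN/Hsp70 and 12.06 ± 0.23 in aSYN (SD, n = 6 each). The difference of 0.73 ± 0.13 (SE), or 1.66-fold, had a limma adjusted p of 0.0107, and 6 of 6 aSYN/Hsp70 arrays lay above the aSYN mean. It was called in each of 24 fits without 1 array, at 0.67 to 0.83 (limma adjusted p between 0.00131 and 0.0374), and was lost only when the fit held no arrays but those of the 2 groups (adjusted p = 0.112). Against wt, aSYN differed by -0.52 ± 0.13 (adjusted p = 0.21) and aSYN/Hsp70 stood 0.33 ± 0.13 above Hsp70 (adjusted p = 0.423, limma). The interaction was 0.85 ± 0.18 (limma adjusted p = 0.097).

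The other 4 Gabrb2 probe sets were not called. Probe set 1429685_at, the brightest, ranged from 13.86 to 14.47 in aSYN/Hsp70 (median 14.37), from 14.23 to 14.96 in aSYN (median 14.60), from 14.13 to 14.97 in Hsp70 (median 14.65) and from 14.32 to 14.77 in wt (median 14.57). Its values ran the other way, with a difference of -0.350 between aSYN/Hsp70 and aSYN (SE 0.144, limma adjusted p = 0.194). The differences of 1428204_at, 1428203_at and 1428205_x_at were 0.02, -0.005 and -0.228. Across the 24 arrays, after each group's mean was taken out, 1450319_at and 1429685_at had a Pearson r of 0.004, whereas 1428205_x_at and 1429685_at had one of 0.585. The Gabrb2 call therefore belongs to 1 of 5 probe sets, and the stretch of the transcript that each of them reads was not looked up here.

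RNA quality was read from 4 control transcripts as 3′ minus 5′ signal. That score averaged 0.846 in aSYN/Hsp70 and 0.972 in aSYN (exact two-sided permutation p = 0.0368, adjusted over 5 comparisons 0.184). Within groups its Pearson r was 0.046 with 1450319_at and 0.475 with 1429685_at (permutation p = 0.838 and 0.0393, adjusted over 4 probe sets 0.902 and 0.157; rho -0.035 and 0.448, adjusted p = 0.992 and 0.19; r without the 2 farthest arrays 0.021 and 0.353), and its part in the Gabrb2 difference was not tested further.

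**Figure D2:**
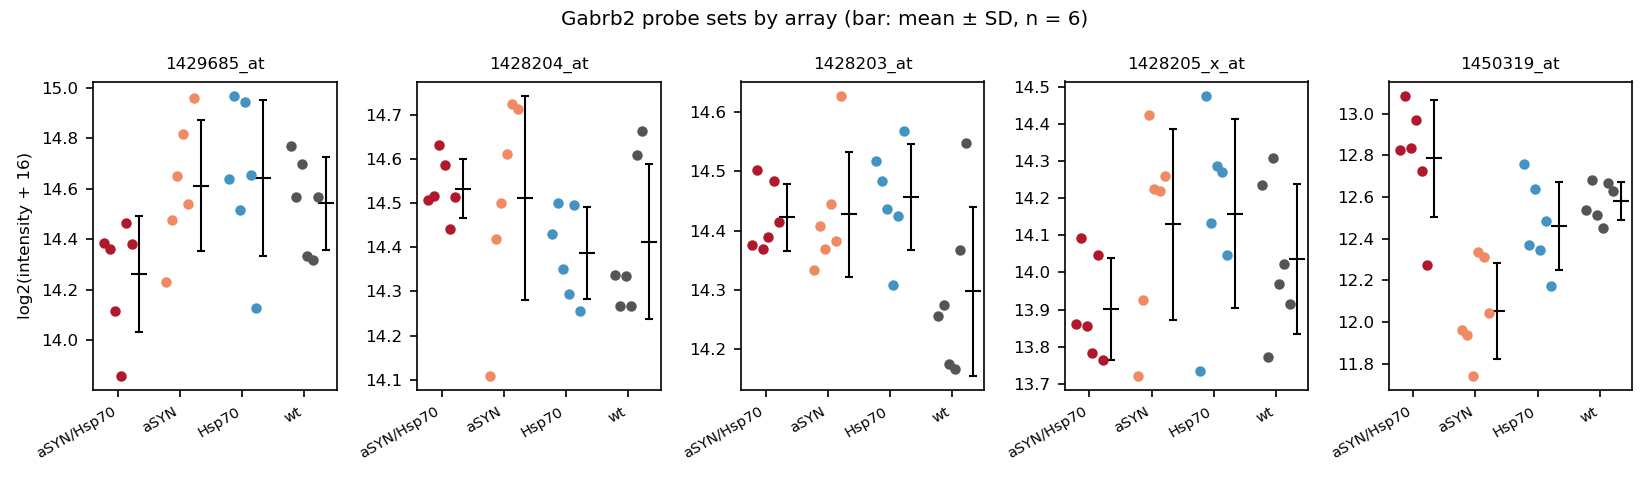
The 5 tested Gabrb2 probe sets; each point is 1 array (y axis: log2(intensity + 16), a separate scale per panel), with the mean and SD of 6 arrays beside it. In 1450319_at the aSYN arrays (11.74 to 12.34) all lie below the wt arrays (12.45 to 12.68), a difference that was not called. The other panels do not show this order.

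For the GABA-A subunits together, the brightest probe sets of 8 of 9 tested genes were lower and 1 was higher in aSYN/Hsp70 than in aSYN (median -0.129), and the same counts held against wt (median -0.212). None of these brightest probe sets was called. The counts changed with the arrays that stood apart. Without those 4 arrays, 4 of 9 were lower than in aSYN (median 0.021) and 5 of 9 lower than in wt (median -0.034). Without aSYN/Hsp70 replicate 4 alone, 6 of 9 were lower than in aSYN (median -0.027) and 7 of 9 lower than in wt (median -0.087).

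Gabrd, the delta subunit of receptors outside the synapse, shows that dependence. It ranged from 11.89 to 12.83 in aSYN/Hsp70 (median 12.69), against 12.60 to 12.92 in aSYN (median 12.83), 12.55 to 13.06 in Hsp70 (median 12.89) and 12.80 to 13.04 in wt (median 12.90). The lowest of all was aSYN/Hsp70 replicate 4. Its difference from wt was -0.32 ± 0.12 (limma adjusted p = 0.297), and -0.188 without that replicate.

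Gabra3, the alpha3 subunit, was the subunit whose brightest probe set had a positive difference. It averaged 12.88 ± 0.24 in aSYN/Hsp70, 12.63 ± 0.12 in aSYN, 12.69 ± 0.15 in Hsp70 and 12.64 ± 0.16 in wt (SD, n = 6 each). The difference from aSYN was 0.24 ± 0.10 (SE, limma adjusted p = 0.215), and the groups overlapped. Among the brightest probe sets of the subunits, that of Gabra5 had the next most negative difference from aSYN after that of Gabrb2. Gabra5, the alpha5 subunit found mostly in hippocampus, differed by -0.33 ± 0.21 (limma adjusted p = 0.39), and by -0.113 without aSYN/Hsp70 replicate 4. The brightest probe sets of Gabra2, Gabra4, Gabrb1, Gabrg1 and Gabrg3 differed by -0.06 to -0.13 between aSYN/Hsp70 and aSYN. Dimmer probe sets of a gene could differ from its brightest. Gabra4 1429330_at averaged 12.42 in aSYN/Hsp70 and 12.84 in aSYN. Both other tested Gabra2 probe sets had higher means in aSYN/Hsp70, 12.50 against 12.24 (1443865_at) and 12.33 against 12.22 (1455444_at). None of them was called.

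Gabra6 encodes the alpha6 subunit, which in the brain is made almost only by cerebellar granule cells. Both of its probe sets were among the dim ones and were not tested. The brighter, 1417121_at, stood at 14.28 in wt replicate 1. The next values were 11.34 in Hsp70 replicate 4, 10.46 in aSYN/Hsp70 replicate 4, 10.30 in wt replicate 5 and 9.38 in wt replicate 3, and the median of the 23 arrays other than wt replicate 1 was 6.92. Only 6 of the 24 arrays lay above 8.13, the lowest mean of a tested probe set. Gabra6 was thus at the dim level in 18 of 24 arrays.

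Other cerebellar genes had the same highest array. Cbln3 and Fat2, further genes of granule cells, reached 11.72 and 11.12 in wt replicate 1, with medians of 7.91 and 6.19 over the other 23 arrays, and lay above the dim level in 8 and 2 of the 24 arrays. Cbln1, a granule cell gene that is also made in other regions, stood at 14.42 in wt replicate 1 and above the dim level in 24 of 24 arrays (median of the other 23, 11.96). Among genes of Purkinje cells, the output neurons of the cerebellar cortex, Pcp2 reached 14.45, Car8 13.69 and Ppp1r17 12.74 in wt replicate 1, with medians of 8.54, 10.73 and 8.32 over the other 23 arrays. They lay above the dim level in 15, 24 and 16 of the 24 arrays. In most arrays labelled whole brain, Gabra6, Cbln3 and Fat2 were thus at the dim level and the other 4 genes were not, and the sources used here do not say what was dissected. Differences from wt of Calb2, Pvalb, Npy, Tac2 and Cort, and counts and medians of the neuropeptides, are also given without wt replicate 1.

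**Figure D3:**
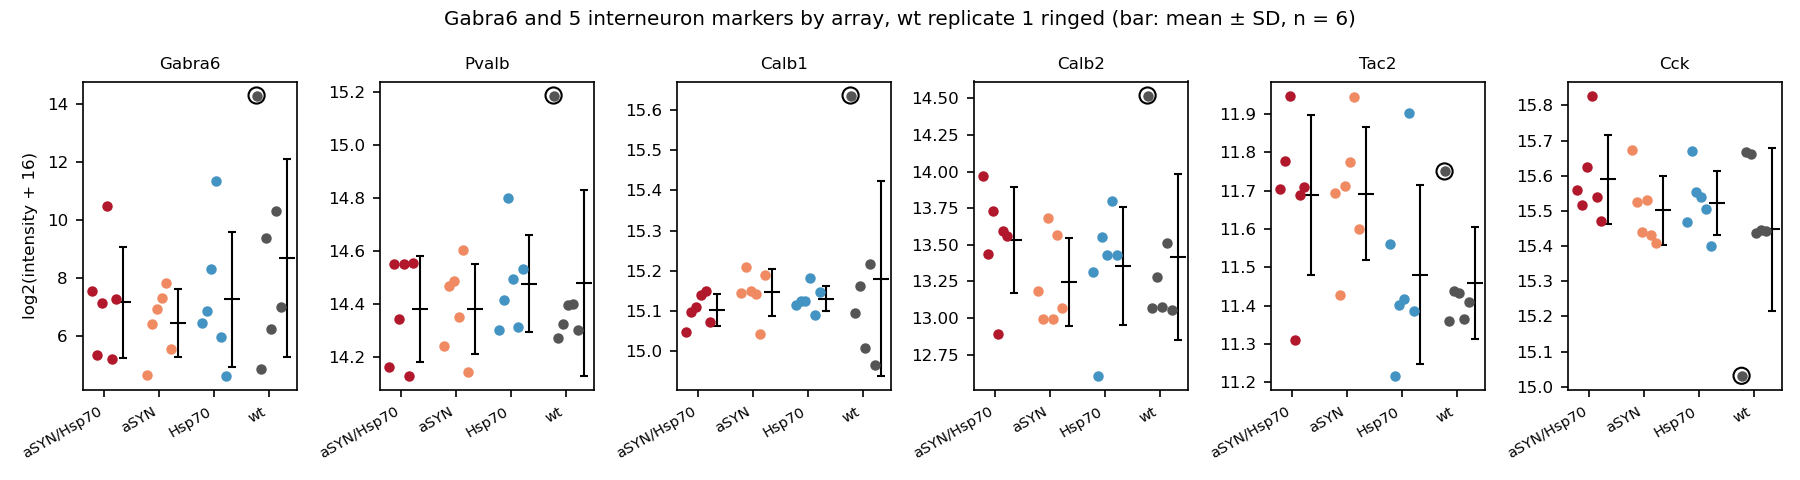
Gabra6 and 5 interneuron markers, with wt replicate 1 ringed; each point is 1 array (y axis: log2(intensity + 16), a separate scale per panel), with the mean and SD of 6 arrays beside it. That replicate stands at 14.28 for Gabra6 and 15.19 for Pvalb, above all other arrays, and at 15.03 for Cck, below them.

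Gabbr1, the subunit of the GABA-B receptor that binds GABA, had 3 tested probe sets and none was called. Its brightest averaged 15.54 ± 0.20 in aSYN/Hsp70, 15.46 ± 0.17 in aSYN, 15.61 ± 0.14 in Hsp70 and 15.53 ± 0.14 in wt (SD, n = 6 each), with overlapping groups. Among the scaffold genes, Gphn encodes gephyrin, which anchors GABA-A and glycine receptors, and Nlgn2 encodes neuroligin 2, an adhesion molecule of inhibitory synapses. The brightest Gphn probe set differed by 0.07 ± 0.07 and the brightest Nlgn2 probe set by 0.06 ± 0.11 between aSYN/Hsp70 and aSYN (SE), and 0 of 5 scaffold probe sets were called in any comparison.

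Gad1 encodes GAD67, the decarboxylase that supplies most of the brain's GABA. Its probe set 1416562_at ranged from 14.95 to 15.41 in aSYN/Hsp70 (median 15.13), from 14.60 to 15.02 in aSYN (median 14.73), from 14.75 to 15.12 in Hsp70 (median 14.95) and from 14.80 to 15.15 in wt (median 14.99). It had the same order of groups as Gabrb2 1450319_at, highest in aSYN/Hsp70 and lowest in aSYN, and 1 aSYN array, at 15.02, stood above 2 of the aSYN/Hsp70 arrays. The means were 15.15 ± 0.17 in aSYN/Hsp70 and 14.77 ± 0.15 in aSYN, a difference of 0.38 ± 0.09 (SE) that missed the threshold (limma adjusted p = 0.0546). It passed with a trended and robust variance (limma adjusted p = 0.0209) and in 4 of 24 fits without 1 array. Its adjusted p rose in other fits. Without the 4 arrays that stood apart the difference was 0.284, and without aSYN/Hsp70 replicate 4 it was 0.33 (limma adjusted p = 0.178 and 0.113). With the sex covariate it was 0.37 (limma adjusted p = 0.0995). Fitting aSYN/Hsp70 and aSYN alone left it at 0.38 (limma adjusted p = 0.177). The interaction was 0.42 ± 0.13 (limma adjusted p = 0.371).

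The brighter Gad1 probe set, 1416561_at, averaged 15.10 ± 0.41 in aSYN/Hsp70, 15.26 ± 0.09 in aSYN, 15.19 ± 0.17 in Hsp70 and 15.29 ± 0.23 in wt. Its difference between aSYN/Hsp70 and aSYN was -0.16 ± 0.15 (limma adjusted p = 0.552), and 0.072 with all 4 arrays of low weight left out. The pair of Gad1 probe sets had a Pearson r of -0.337 across arrays within groups, and -0.004 without those 4 arrays. Neither probe set was called in any comparison.

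Gad2 encodes GAD65, the decarboxylase held at nerve endings. Its brighter probe set, 1429589_at, averaged 14.58 ± 0.28 in aSYN/Hsp70, 14.32 ± 0.31 in aSYN, 14.20 ± 0.43 in Hsp70 and 14.24 ± 0.21 in wt (SD, n = 6 each). The aSYN/Hsp70 mean was the highest, and its range overlapped all other groups. Against Hsp70 its difference was 0.38 ± 0.18 and that of the other probe set, 1421978_at, was 0.30 ± 0.12 (limma adjusted p = 0.517 and 0.437).

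Slc32a1 encodes the vesicular GABA transporter. It ranged from 12.93 to 13.60 in aSYN/Hsp70 (median 13.22), from 13.37 to 13.62 in aSYN (median 13.50), from 12.87 to 13.49 in Hsp70 (median 13.33) and from 13.31 to 13.96 in wt (median 13.52). Both groups with Hsp70 had lower means than both groups without it, and all 4 ranges overlapped. The average Hsp70 difference was -0.28 ± 0.09 (SE, limma adjusted p = 0.197), and between -0.31 and -0.23 in 24 fits without 1 array, none of which called it. Over 8 alternative settings of the processing it lay between -0.303 and -0.186 (limma adjusted p between 0.144 and 0.614).

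Abat encodes GABA transaminase, which breaks GABA down. Its tested probe set ranged from 14.18 to 14.71 in aSYN/Hsp70 (median 14.46), from 14.37 to 14.58 in aSYN (median 14.45), from 14.39 to 14.72 in Hsp70 (median 14.49) and from 14.55 to 14.82 in wt (median 14.66). The wt mean, 14.67 ± 0.11, was the highest, and the aSYN/Hsp70 mean, 14.42 ± 0.21, the lowest. Their difference was -0.255 (SE 0.087, limma adjusted p = 0.274), and that between aSYN and wt -0.204 (adjusted p = 0.866). Slc6a11, the GABA transporter GAT3 of astrocytes, differed by -0.22 ± 0.21 between aSYN/Hsp70 and aSYN (limma adjusted p = 0.581), and by -0.021 without aSYN/Hsp70 replicate 4.

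**Figure D4:**
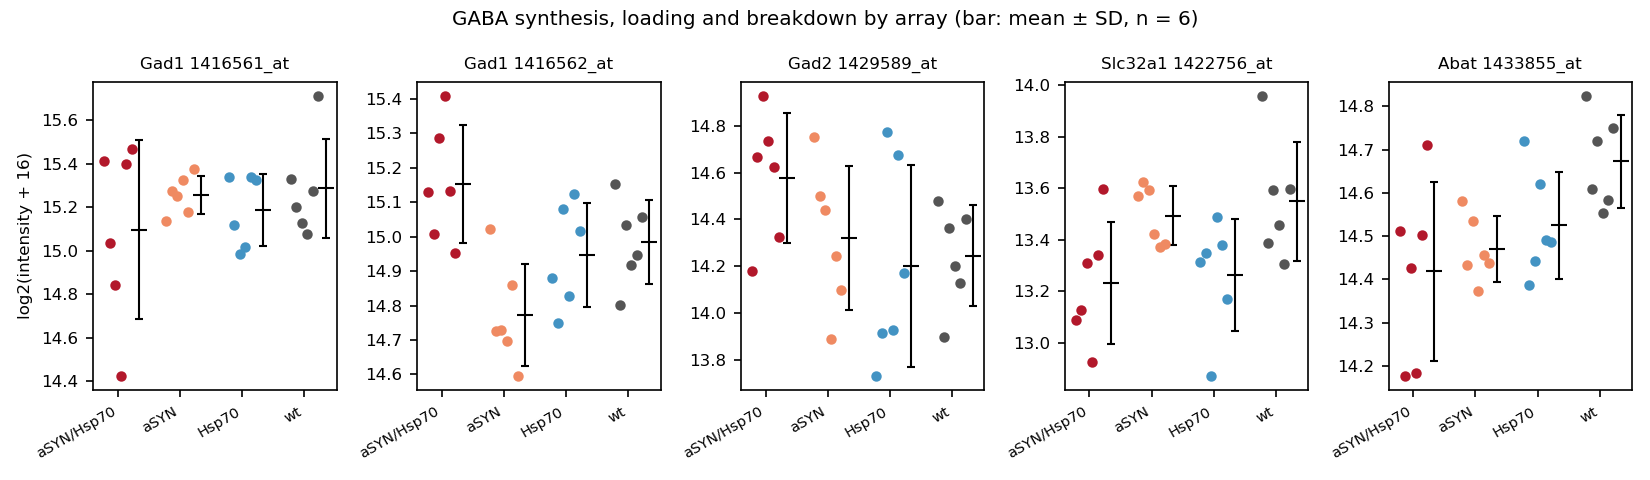
Gad1 (2 probe sets), Gad2, Slc32a1 and Abat; each point is 1 array (y axis: log2(intensity + 16), a separate scale per panel), with the mean and SD of 6 arrays beside it. The second Gad1 probe set is highest in aSYN/Hsp70 (14.95 to 15.41) and lowest in aSYN (14.60 to 15.02), and its brighter partner is not.

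Pvalb, Calb1 and Calb2 encode parvalbumin, calbindin and calretinin, calcium-binding proteins of interneuron classes that are also made elsewhere, parvalbumin and calbindin by Purkinje cells. Their probe sets were not called in any comparison. Pvalb ranged from 14.13 to 14.55 in aSYN/Hsp70 (median 14.45), 14.14 to 14.61 in aSYN (median 14.41), 14.30 to 14.80 in Hsp70 (median 14.46) and 14.27 to 15.19 in wt (median 14.36). The groups overlapped, and the top value was wt replicate 1. Pvalb differed by -0.10 between aSYN/Hsp70 and wt, and by 0.043 without that replicate (limma adjusted p = 0.733 and 0.873).

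Calb1 stood at 15.64 and Calb2 at 14.52 in wt replicate 1, both the highest of 24 arrays. Against wt, Calb2 differed in aSYN/Hsp70 by 0.113, and by 0.334 without wt replicate 1 (limma adjusted p = 0.827 and 0.469). Across arrays within groups, Pearson's r of Calb1 with a score of 6 Purkinje genes was 0.746, and 0.339 without wt replicate 1. For Pvalb and the same score it was 0.659, and 0.280 without that replicate. Neither relation passed adjustment over the 18 pairs (permutation p = 0.0101 and 0.0213, adjusted 0.0608 and 0.0957). Spearman's rho was 0.423 and 0.543 (adjusted permutation p = 0.245 and 0.0855). Both r fell without that array. Without the 2 arrays farthest from the median of the gene, r was 0.376 for Calb1 and 0.519 for Pvalb. Calb2, which granule cells of the olfactory bulb make in quantity, had an r of 0.564 with a score of 7 olfactory bulb genes (adjusted permutation p = 0.0547, rho 0.497 with adjusted p = 0.112, r without the 2 farthest arrays 0.522). That score, relative to the wt mean, ran from -0.514 to 1.569 in aSYN/Hsp70, -0.472 to -0.007 in aSYN, -1.059 to 1.687 in Hsp70 and -0.474 to 0.720 in wt, and Calb2 had the most positive difference of the 28 members between aSYN/Hsp70 and aSYN, 0.28 ± 0.24 (limma adjusted p = 0.508).

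The neuropeptides were Sst, Vip, Npy, Cck, Tac2 and Cort, which encode somatostatin, VIP, neuropeptide Y, cholecystokinin, neurokinin B and cortistatin. None was called in any comparison. Against wt, 5 of 6 were higher and Cort was lower in aSYN/Hsp70, in aSYN and in Hsp70, comparisons that share the wt arrays (medians 0.134, 0.185 and 0.089). Without wt replicate 1 the counts were 4 of 6, 4 of 6 and 3 of 6, and the medians 0.046, 0.099 and 0.006.

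Npy, also made by some neurons outside the interneuron classes, ranged from 14.69 to 16.06 in aSYN/Hsp70 (median 14.80), from 14.64 to 15.66 in aSYN (median 14.99), from 14.47 to 15.15 in Hsp70 (median 14.74) and from 14.10 to 15.03 in wt (median 14.65). Its highest value, 16.06, was aSYN/Hsp70 replicate 4, and the groups overlapped. The difference from wt was 0.36 ± 0.21 in aSYN/Hsp70, and 0.153 without that replicate, and 0.39 ± 0.21 in aSYN (limma adjusted p = 0.402, 0.781 and 0.995). The lowest value of all, 14.10, was wt replicate 1, and without it the differences were 0.258 in aSYN/Hsp70 and 0.280 in aSYN (limma adjusted p = 0.585 and 1). Tac2 had the smallest unadjusted p of the neuropeptides, with an average aSYN difference of 0.22 ± 0.08 (limma adjusted p = 0.758). Without wt replicate 1, Tac2 differed from wt by 0.288 in aSYN/Hsp70 and 0.291 in aSYN (limma adjusted p = 0.411 and 0.95). Cort was lowest of all 28 members in 7 of 8 comparisons, but its SE was 0.57 where 6 arrays were set against 6, and its -0.92 between aSYN/Hsp70 and wt had a limma adjusted p of 0.435. It was -1.183 without wt replicate 1 (limma adjusted p = 0.432).

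Sst and Npy varied together from array to array. They are made together by a class of interneurons and of long-range inhibitory neurons. With each group's mean taken out, Pearson's r over 24 arrays was 0.747 (permutation p = 5e-05, adjusted over 18 pairs 0.0009) and Spearman's rho 0.643 (adjusted p = 0.0151). Without the 2 arrays farthest from the median of Sst, r was 0.686; it was 0.623 once all 4 arrays apart from the rest were left out, and 0.739 without wt replicate 1. It was the only one of 18 listed pairs with an adjusted permutation p under 0.05. Sst and Cort, related peptides, had an r of 0.147, Vip and Calb2, which share an interneuron class, -0.456, and Pvalb and Lhx6 -0.046 (adjusted permutation p = 0.64, 0.274 and 0.89; rho 0.183, -0.340 and 0.193). Vip and Calb2 had an r of -0.070 without wt replicate 1.

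The 250 bases before the start of the 2 genes that varied together follow because they carry the pair (RefSeq, build GRCm38.p6), Sst at chr16:23890845-23891094 on the minus strand and Npy at chr6:49822460-49822709 on the plus strand. Capitals mark the cAMP response element TGACGTCA, searched on both strands along with TATAAA.
Sst: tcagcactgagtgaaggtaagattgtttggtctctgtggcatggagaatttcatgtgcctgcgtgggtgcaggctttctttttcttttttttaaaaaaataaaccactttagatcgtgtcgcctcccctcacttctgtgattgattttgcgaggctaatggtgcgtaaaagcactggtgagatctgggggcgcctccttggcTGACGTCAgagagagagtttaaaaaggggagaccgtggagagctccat
Npy: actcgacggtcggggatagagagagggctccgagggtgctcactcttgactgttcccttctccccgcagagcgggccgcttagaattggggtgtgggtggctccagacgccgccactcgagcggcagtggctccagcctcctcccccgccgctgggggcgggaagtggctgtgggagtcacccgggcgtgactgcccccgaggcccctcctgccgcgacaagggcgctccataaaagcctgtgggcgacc

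The element starts 48 bases before the start of Sst, whose promoter is a textbook case of control by cAMP, and these letters do not occur in the Npy window. Of 33 windows of the 26 members in the table, 1 held TGACGTCA, that of Sst, against 1.55% of all 32851 windows. TATAAA was in neither window shown and in 12.4% of all windows. A match of letters is a description and says nothing of use in these brains.

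Further pairs were chosen after the correlations had been seen and are given as a description, with no test. Gabra4 and Gabra5 had an r of 0.866 (0.700 without the 4 arrays that stood apart), Gabra2 and Gabrg1 0.734 (0.469), Calb2 and Tac2 0.722 (0.718), and Npy and Cck 0.678 (0.723). Negative values were found for Gad1 and Nlgn2, at -0.779 (-0.701), and for Calb2 and Cck, at -0.717 (-0.706). The last was -0.493 without wt replicate 1. Pairs listed because their products share a receptor or a step of GABA handling had r of 0.305 for Gabra2 and Gabrb1, 0.127 for Gabra5 and Gabrg3, 0.396 for Gad1 and Slc32a1 and -0.284 for Gad1 and Gad2 (adjusted permutation p = 0.451, 0.698, 0.274 and 0.296).

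**Figure D5:**
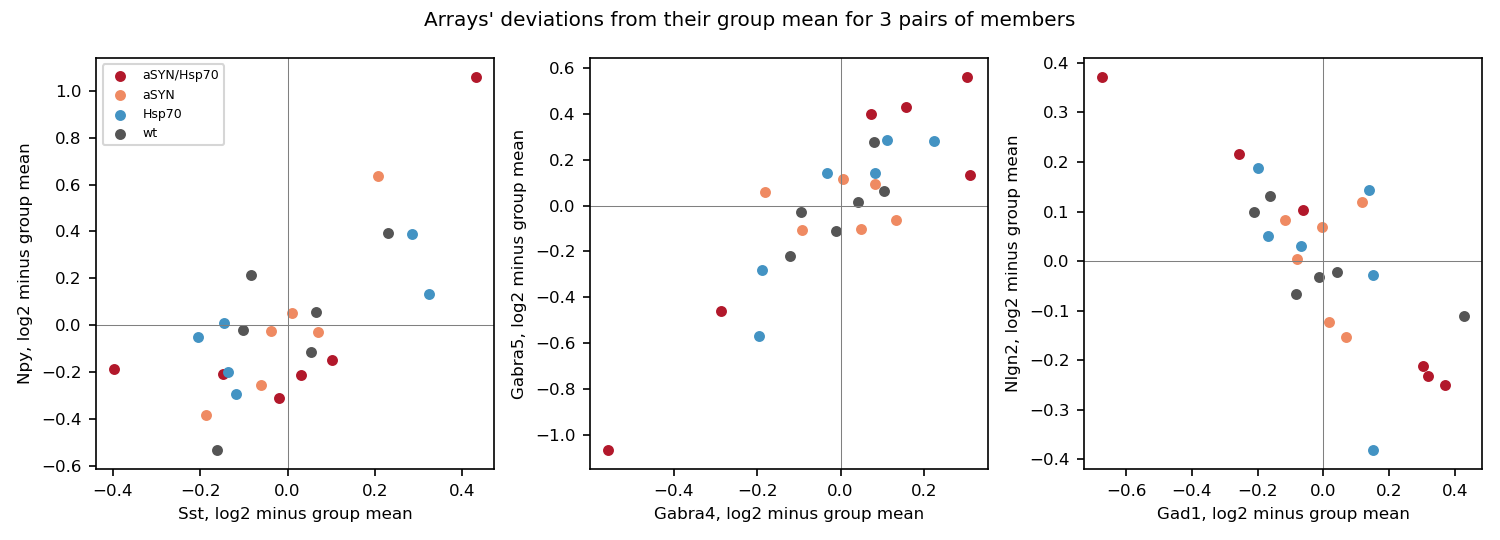
Deviation of each of 24 arrays from its group mean (log2 units on both axes, colours for the groups) for Sst and Npy, Gabra4 and Gabra5, and Gad1 and Nlgn2. Pearson's r is 0.747, 0.866 and -0.779; the point at the far end of each panel is replicate 4 of aSYN/Hsp70.

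Reln and Lhx6 were the remaining interneuron markers. Reln encodes reelin, a secreted protein of interneurons near the brain surface, and Lhx6 a transcription factor of interneurons from the medial ganglionic eminence. Reln averaged 13.70 ± 0.32 in aSYN/Hsp70, 13.46 ± 0.11 in aSYN, 13.48 ± 0.14 in Hsp70 and 13.53 ± 0.23 in wt, and the groups overlapped (difference from aSYN 0.23 ± 0.13 SE, limma adjusted p = 0.306). The brighter Lhx6 probe set averaged 10.94 ± 0.31 in aSYN/Hsp70, 11.01 ± 0.10 in aSYN, 10.92 ± 0.17 in Hsp70 and 10.88 ± 0.20 in wt. None of the 3 probe sets of these genes was called.

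Genes of the same pathway outside the members were listed with earlier results of these data known. Of 40 probe sets for 22 tested GABA pathway genes, 2 were called higher and 0 lower in aSYN/Hsp70 versus aSYN, and of 50 for 25 tested interneuron genes 0 were called higher and 1 lower, against 0.718% of all probe sets in either direction. At an unadjusted limma p under 0.05, 13 of the 40 and 9 of the 50 passed in that comparison, against 19.6% of all probe sets. In the other 7 comparisons 0 were called from either list. There 0 to 12 of the 40 and 1 to 10 of the 50 had an unadjusted limma p under 0.05, against 4.83% to 17.7% of all probe sets. These shares were not tested against each other.

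Slc12a5 encodes KCC2, the transporter that keeps neuronal chloride low so that GABA inhibits. Its probe set 1425337_at ranged from 13.36 to 13.63 in aSYN/Hsp70 (median 13.51), from 12.80 to 13.22 in aSYN (median 12.99), from 13.05 to 13.69 in Hsp70 (median 13.33) and from 13.13 to 13.53 in wt (median 13.39). The aSYN/Hsp70 and aSYN groups did not overlap, and the other groups lay between or across them. The difference was 0.50 ± 0.10 (SE, 1.41-fold, limma adjusted p = 0.0219), and the brighter probe set, 1451674_at, differed by 0.107 (limma adjusted p = 0.316).

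Kctd16 encodes an auxiliary subunit of GABA-B receptors and had a single tested probe set. It ranged from 9.82 to 10.77 in aSYN/Hsp70 (median 10.06), against 9.19 to 9.66 in aSYN (median 9.42), 9.69 to 10.28 in Hsp70 (median 9.93) and 9.32 to 9.94 in wt (median 9.77). The aSYN/Hsp70 and aSYN groups did not overlap. Its difference of 0.70 ± 0.15 (SE, limma adjusted p = 0.0281) was no longer called without aSYN/Hsp70 replicate 4 (0.686, adjusted p = 0.0587), without all 4 arrays apart from the rest (0.525, adjusted p = 0.0811) or with the sex covariate (0.665, adjusted p = 0.0579).

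Kcnc1 encodes Kv3.1, a potassium channel of fast-spiking interneurons. Its brightest probe set, 1443855_at, averaged 12.94 ± 0.21 in aSYN/Hsp70, 13.45 ± 0.16 in aSYN, 13.11 ± 0.12 in Hsp70 and 13.30 ± 0.20 in wt (SD, n = 6 each). The difference of -0.52 ± 0.11 between aSYN/Hsp70 and aSYN was called (limma adjusted p = 0.0271), and not without aSYN/Hsp70 replicate 4 (-0.460, adjusted p = 0.0588) or the 4 arrays that stood apart (-0.401, adjusted p = 0.1). The other 3 Kcnc1 probe sets differed by 0.184, 0.055 and 0.448. As with Gabrb2 1450319_at, the calls on Slc12a5, Kctd16 and Kcnc1 were lost when only the arrays of the 2 groups were fitted (limma adjusted p = 0.0838, 0.127 and 0.134).

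Probe sets of 1 gene did not always vary together, which bears on every gene above that was read by several. Of 23 pairs of a brightest probe set with another of the same member, 10 had an adjusted permutation p under 0.05 for Pearson's r. Both Gabra2 pairs were among them (r 0.735 and 0.705), while both Gabbr1 pairs (0.170 and -0.019), the Gabra3 pair (0.056) and the Gad2 pair (0.173) were not.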

How the data were processed

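Whole-brain RNA of 24 mouse samples, 4 groups of 6 taken from the sample titles, was measured on Affymetrix arrays. The authors deposited 1 linear intensity for each probe set of an array, and the sources used here do not name the program behind it. With 2% of the values trimmed at either end, each deposited array averaged 2500, a common scaling target. Intensities were transformed as log2(intensity + 16) and quantile normalised, and the 64 control and 18015 dimmest probe sets (40%) were left out. The offset understates differences of dim probe sets.

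Genes were named from probe sets with 1 symbol in the platform annotation (34958, with 932 holding several and 9211 unnamed here). By gene ID 34754 matched a table of GRCm38.p6, and 0 symbols changed. Comparisons were contrasts of a single linear model over the 24 arrays (limma 3.58.1, R 4.3.3), with Benjamini-Hochberg values over 27022 probe sets, called at 0.05. Correlations used values with the group mean taken out and 100000 permutations within groups, for 18 listed pairs. The end score was compared over 924 exact splits (smallest p 0.00216). Precision is limited by the number of arrays.

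The members, lists, pairs and tests were chosen with earlier results of these data known. Values in every group were fixed for members called or with an unadjusted p under 0.01 in a comparison (Gabrb2, Gad1, Abat, Slc32a1). Other list genes were to be named where called, and further members singled out here were chosen after their values were seen. Marker lists of regions and other cell types were set beside the members. The fit was tested on simulated arrays. Alternatives were an offset of 1, no quantile normalisation, no dim filter, fitting only the arrays compared, the replicate block, array weights, a sex covariate, a trended and robust variance, the mean over probe sets, no arrays of weight under 0.5, and each array left out. Counts by role and fits without single arrays were added after seeing the data. Figures were drawn with matplotlib 3.10.9.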

Additional observations from a re-analysis of the deposited data

Results flagged for a closer look

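In 124 groups of 6 arrays (the brightest probe set of each member and the named probe sets), 9 held an array far from the other 5, with a gap to its nearest neighbour above Dixon's critical value for 6. Chance gives about 1 in 20 groups where groups are independent. The groups here share arrays, so their number was not tested against chance. In wt, replicate 1 was the array in 4 of the 9: Pvalb at 15.19 (the other 5 between 14.27 and 14.40), Calb2 at 14.52 (13.05 to 13.51), Tac2 at 11.75 (11.36 to 11.44) and Cck at 15.03 (15.44 to 15.67). This is the array with Gabra6 at 14.28 and Pcp2 at 14.45.

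In aSYN/Hsp70, replicate 4, the array of lowest weight, had Npy at 16.06 (the others 14.69 to 14.85) and Gabrd at 11.89 (12.59 to 12.83). In aSYN, replicate 1 had Vip at 13.11 (13.46 to 13.63) and Gabrb1 at 14.60 (14.17 to 14.30). In Hsp70, replicate 6 had Gabrb1 at 13.72 (14.22 to 14.40). The part of these arrays in the results was not tested beyond the fits without them.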

How the results depend on the processing

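The Gabrb2 call in aSYN/Hsp70 versus aSYN (1 member probe set) became 0 with only the arrays of the groups compared, where fewer arrays estimate the spread, and 2, with Gad1, under a trended and robust variance. With array weights 1 member probe set, Gabrb2 1450319_at, was called in aSYN versus wt (-0.557, limma adjusted p = 0.015) and 1 in the interaction (0.815, adjusted p = 0.0412), where a trended and robust variance also called 1 (0.849, adjusted p = 0.0438); all probe sets called under array weights numbered 217 and 81. The cause was not tested. Over all probe sets, the 194 calls in aSYN/Hsp70 versus aSYN became 7 with only the arrays compared and 369 with the trended and robust variance.

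With each array left out, the count in aSYN/Hsp70 versus aSYN lay between 1 and 2 (2 without aSYN/Hsp70 replicate 6, aSYN replicate 1, Hsp70 replicate 3 or Hsp70 replicate 6) and that of the interaction between 0 and 1 (1 without aSYN/Hsp70 replicate 6, at 0.951). The other 6 counts stayed at 0 in all 24 such fits. Median member differences ranged from -0.070 to -0.020 in aSYN/Hsp70 versus aSYN, -0.039 to 0.034 versus Hsp70, -0.051 to -0.010 versus wt, -0.038 to 0.035 in aSYN versus wt and -0.065 to 0.001 in Hsp70 versus wt; the members' mean score had an SD of 0.069 between arrays of a group.

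With the replicate block, Gabrb2 1450319_at stayed at 0.73 (limma adjusted p = 0.0332) and no member call changed, while all calls in that comparison fell to 70. Same-numbered arrays of different groups had a mean correlation of 0.018 over 36 pairs (-0.148 to 0.193), against -0.001 for other numbers. These means gave no sign of pairing by number, but they would not show a pairing limited to some genes. The number of arrays and dim probe sets such as Cort limit what could be seen.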
